A study of Mus musculus with 20 samples.

Results

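The 9 genes described here encode the MHC class I molecules and the machinery that loads them: B2m, H2-K1, H2-D1, H2-T23, H2-M3, Tap1, Tap2, Tapbp and Nlrc5. They were listed by symbol and not by a cut on measured values, but earlier results of these data were known when they were chosen. All 9 were found among the 16536 genes listed for the Cxcr4-GFP mice and among the 16140 genes listed for the Cxcr4CreER mice. All 9 also passed the filter on low values in both tables. RNA was sequenced from 2 cell populations sorted from mouse brain 3 days after permanent photothrombosis, in which a photosensitive dye is activated by light so that it blocks vessels and produces a focal infarct. In Cxcr4-GFP reporter mice, 4 libraries were made from total RNA of GFP-negative cells (microglia) and 4 from that of GFP-positive cells (monocytes), 1 of each from every animal or pool (2 mice, a pool of 5, and 2 single mice). In the Cxcr4CreER line, which carries a tamoxifen-dependent Cre recombinase, TdT-negative microglia and TdT-positive monocytes were taken from control mice and from mice labelled KO, in which Cxcr4 is the gene deleted, with 3 polyA RNA libraries in each of the 4 groups. Control mice carry the Cxcr4CreER allele too, and both populations came from the same mouse in 2 controls and in 2 KO mice. Population and reporter signal coincide in both lines, so that they cannot be told apart. Titles of the reporter libraries carry the same unexplained tag, BrKo, as those of the KO libraries, and neither sex nor the tamoxifen schedule is given in the sources used here. The 2 tables were normalized separately, with different kits, and no level is compared between them. The values are bulk measurements, in which fewer expressing cells and less RNA per cell cannot be told apart.

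MHC class I molecules show peptides from inside the cell to CD8 T cells and are engaged by receptors of natural killer cells. A heavy chain pairs with the light chain B2m in the endoplasmic reticulum, where the Tap1-Tap2 transporter delivers peptides from the cytosol and tapasin, the product of Tapbp, holds the empty molecule at the transporter until a peptide binds. Nlrc5 is the class I transactivator, a nuclear protein that acts at a composite promoter element, the SXY module, of class I genes, and interferons are known inducers of the whole set. Microglia and monocytes can both present antigen, and microglia in healthy brain are known for low class I levels.

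The promoter letters next to the gene starts are shown first, because the members differ in whether they hold 2 short cores of the SXY module at a fixed distance. Each line gives the 200 bases before a gene's annotated start, from RefSeq on GRCm38.p6, read 5′ to 3′ on the strand of the gene. Capitals mark TGACG, the core of an X2-like box, and ATTGG, the inverted CCAAT of a Y-like box, where they stand 20 bases apart. Tap1 and Tapbp are shown as members without that arrangement.
B2m, chr2:122147487-122147686, plus strand: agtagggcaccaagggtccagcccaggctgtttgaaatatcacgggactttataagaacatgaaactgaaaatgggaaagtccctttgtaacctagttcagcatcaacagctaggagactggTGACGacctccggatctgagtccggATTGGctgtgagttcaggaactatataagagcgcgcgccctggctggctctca
H2-K1, chr17:34000348-34000547, minus strand: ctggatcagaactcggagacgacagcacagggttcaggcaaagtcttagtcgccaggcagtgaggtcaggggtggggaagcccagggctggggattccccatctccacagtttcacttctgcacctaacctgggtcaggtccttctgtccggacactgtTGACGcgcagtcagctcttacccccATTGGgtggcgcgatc
H2-D1, chr17:35262894-35263093, plus strand: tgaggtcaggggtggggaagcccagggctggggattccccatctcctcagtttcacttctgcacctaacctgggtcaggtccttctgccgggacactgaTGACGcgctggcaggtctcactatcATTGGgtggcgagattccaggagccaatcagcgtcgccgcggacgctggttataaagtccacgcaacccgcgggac
H2-M3, chr17:37270034-37270233, plus strand: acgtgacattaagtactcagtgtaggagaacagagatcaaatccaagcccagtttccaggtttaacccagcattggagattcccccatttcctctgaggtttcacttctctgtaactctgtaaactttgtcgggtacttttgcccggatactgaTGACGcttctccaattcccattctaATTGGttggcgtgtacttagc
Tap1, chr17:34187356-34187555, plus strand: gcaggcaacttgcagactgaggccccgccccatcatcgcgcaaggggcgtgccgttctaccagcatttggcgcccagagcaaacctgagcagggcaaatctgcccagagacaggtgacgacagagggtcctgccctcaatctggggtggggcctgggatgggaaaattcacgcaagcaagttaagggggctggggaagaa
Tapbp, chr17:33919278-33919477, plus strand: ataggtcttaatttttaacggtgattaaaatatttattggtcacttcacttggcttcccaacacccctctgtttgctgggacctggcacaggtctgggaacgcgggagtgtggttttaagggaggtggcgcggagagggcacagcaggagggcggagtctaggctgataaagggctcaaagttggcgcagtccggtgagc

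Of the 9 members, 7 had an entry in the promoter table, with 300 bases each from 250 before to 50 after the start; Tap2 and Nlrc5 had none. The spaced pair TGACGNNNNNNNNNNNNNNNNNNNNATTGG lay on the gene strand in the windows of B2m, H2-K1, H2-D1 and H2-M3, which is 4 of 7 members, against 16 of 27025 genes with a window (0.0592%), or 27 genes (0.0999%) on either strand. It began 78 bases before the start of B2m, 101 before that of H2-D1, 46 before that of H2-M3 and 41 before that of H2-K1, or 55 bases for the second annotated start of H2-K1. When gaps of 10 to 30 bases between the 2 cores were searched, no member held the pair at a gap other than 20. The motif letters were chosen with these sequences in view, so the counts describe the windows and test nothing.

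Taken alone, the X2-like core TGACG was found on the gene strand in 13.9% of windows, and Tap1 held it 86 bases before its start without a Y-like core at that spacing. The Y-like core ATTGG was in 24.6% of windows on the gene strand and 41.1% on either strand, and all 7 members held it on 1 strand or the other. A kappaB-like pattern, GGGNNNNNCCC, which reads the same on both strands, was in 15.6% of windows and in those of B2m, H2-K1, H2-D1 and Tap1. TTTCNNTT, a short pattern found in interferon response elements, was in 26.7% of windows on either strand and in those of B2m, H2-K1, H2-D1, H2-T23 and H2-M3. No library here measures binding at these sites.

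**Figure D1:**
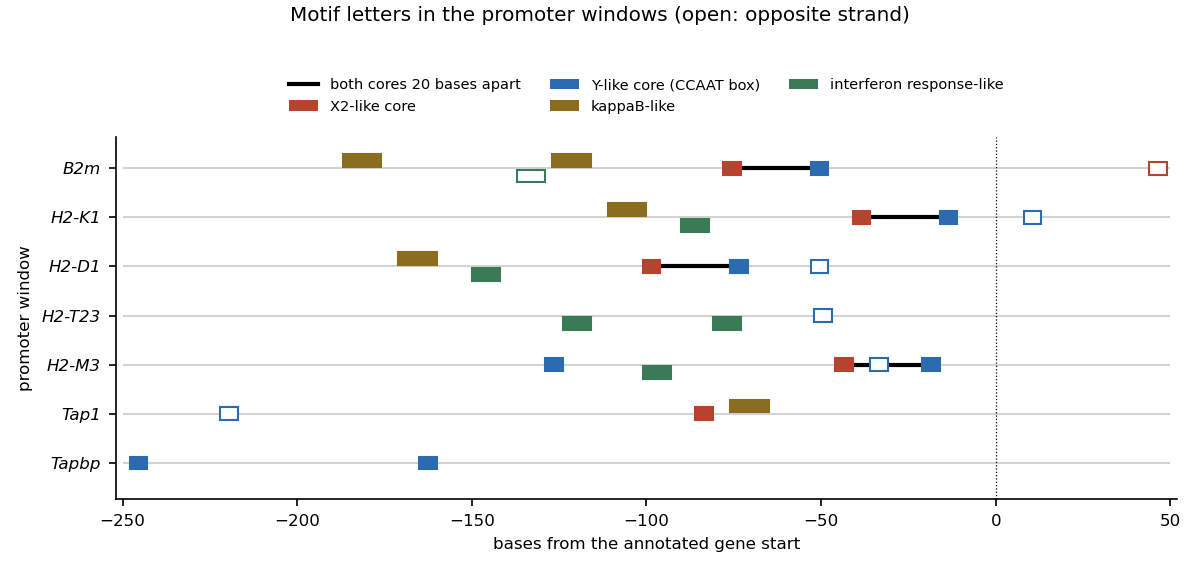
Positions of 4 short patterns in the promoter windows of the 7 members with an entry, in bases from the annotated start (x axis; the dotted line is the start), 1 line per member, for the first annotated start of H2-K1. Filled boxes lie on the gene strand and open boxes on the opposite strand, and a black bar joins the 2 cores where they stand 20 bases apart, as in B2m, H2-K1, H2-D1 and H2-M3.

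The reporter libraries held 0.617 to 14.9 M reads and the Cxcr4CreER libraries 9.73 to 56.8 M. Among the reporter libraries, microglia 3, microglia 4 and monocytes 3 detected 3029 to 5598 genes, against 10422 to 14498 in the other 5. Results are therefore also given for those 5, which are microglia 1 and 2 and monocytes 1, 2 and 4. In that fit limma called 15.5% of 7706 genes, against 0.908% with all reporter libraries. Markers of the labelled populations were high where the labels put them: 10 microglial markers summed to 15271 to 27356 normalized counts in reporter microglia and to 793 to 3485 in reporter monocytes. In Cxcr4CreER mice they summed to 189617 to 305899 in microglia and still to 22539 to 38767 in monocytes. The 10 monocyte markers summed to 113292 to 193130 in the 6 Cxcr4CreER monocyte libraries and to 2252 to 7926 in the 6 microglia libraries. In reporter mice they summed to 4157 to 13837 in monocytes and 2.50 to 303 in microglia. Summed markers of other cell types differed between the populations in several cases too. In the Cxcr4CreER table, 10 neutrophil markers summed to 18363 to 75167 in monocytes and 908 to 4030 in microglia, with Mmp8, Mmp9, Ngp and Ltf at 0 in all microglia libraries, and 6 markers of border-associated macrophages to 41920 to 58050 and 1543 to 3554, with Lyve1 at 0 in all monocyte libraries. There 9 dendritic cell markers summed to 1547 to 4547 in monocytes and 447 to 1127 in microglia. These markers did not move together: of 8 tested, 4 were higher in monocytes of control mice and 5 in those of KO mice. Their median log2 fold changes were -0.44 and 0.53, and 1 was called in each genotype, as higher. Of 5 border-associated macrophage markers tested, 3 were higher in control monocytes and 5 in KO monocytes. In reporter mice the border-associated macrophage markers summed to 126 to 1576 in monocytes and 2.96 to 183 in microglia, the dendritic cell markers to 0 to 148 and 403 to 873, and the neutrophil markers to 425 to 1956 and 892 to 1461. T and NK cell markers there summed to 26.7 to 143 in monocytes and 0 to 5.17 in microglia, and endothelial markers to 87.7 to 317 and 0 to 70.6. Both lists overlapped between the populations in control and in KO mice. B cell markers summed to 530 to 1027 in control microglia and 13.2 to 377 in control monocytes. In KO mice they summed to 422 to 650 and 13.4 to 28.1, and neural and glial markers to 1838 to 2241 and 582 to 1529. The part of these cell types in the results below was not tested. Cxcr4 itself was 1227 ± 91.4 (SD, n = 3) normalized counts in control and 777 ± 237 (n = 3) in KO monocytes, with no overlap, but limma did not call the difference (log2 -0.70, SE 1.10, adjusted p 0.962), so the label KO is not matched by a called loss of the transcript. Which part of Cxcr4 is deleted is not given in the sources used here, and a count over the whole gene need not show it.

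The first question was how the class I genes of monocytes compare with those of microglia from the same kind of brain. Monocyte libraries lay wholly above microglia libraries for B2m and H2-D1 in all 3 sets of mice and for Nlrc5 and Tapbp in control and KO mice, although only 4 of these differences passed the test. In reporter mice limma called 1 of 9 members, B2m, where 0.908% of 7706 tested genes were called and 0.415% were called higher in monocytes. In control mice it called 2 of 9, Nlrc5 and H2-D1, where 6.52% of 12432 genes were called and 3.46% were called higher. In KO mice it called 1 of 9, Nlrc5, where 6.83% were called and 3.85% were called higher. All these member calls were higher in monocytes, and no member was called lower. A call is an adjusted p (Benjamini-Hochberg, over all tested genes) under 0.05. The monocyte libraries lay wholly above the microglia libraries for 2 of 9 members in reporter mice (5.22% of all tested genes), 5 of 9 in control mice (9.6%) and 5 of 9 in KO mice (12.7%).

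The median log2 fold change of the 9 members, monocytes against microglia, was 0.70 in reporter mice, 0.63 in control mice and 0.71 in KO mice, beside 0.51, -0.24 and -0.25 for all tested genes. Fold changes were above 0 for 6, 7 and 8 of 9 members, against 62.8%, 43.4% and 43.1% of all tested genes. When the Cxcr4CreER libraries were scaled by total reads, the median of all genes became -0.40 in control and -0.49 in KO mice, and that of the members 0.46 and 0.46. With upper quartile scaling these medians were -0.49 and -0.41 for all genes and 0.35 and 0.53 for the members. Log2 fold changes are differences of mean log2(value + 1). Adding 1 shrinks the change of genes with few reads, but single libraries with very low values can widen it beyond the ratio of the means. For Nlrc5 in reporter mice the fitted fold was 4.55, while the means were 61.7 in monocytes and 26.2 in microglia. The control comparison and the KO comparison come from different animals and share 1 estimate of the spread.

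B2m, the light chain that every class I molecule shares, had 2012, 2442, 2999 and 3946 normalized counts in the 4 reporter microglia libraries and 4370, 5237, 9182 and 6188 in the monocytes of the same animals or pools. Every monocyte library was above every microglia library. The means rose from 2850 ± 835 (SD, n = 4) to 6244 ± 2094 (n = 4), and the fitted fold, from differences of log2 values, was 2.17, a log2 fold change of 1.12 (SE 0.26, limma adjusted p 0.0296). With each pair of libraries as a block the call held (adjusted p 0.0150) as it did in the 5 libraries with many detected genes (log2 1.23, SE 0.22, adjusted p 0.00268, where 15.5% of genes were called). It was lost without microglia 3, without monocytes 3 or without microglia 4, at adjusted p 0.0727, 0.111 and 0.0582. With edgeR (adjusted p 0.709) and DESeq2 (adjusted p 0.884) on the recovered reads it was also lost, as it was with a pseudocount of 10, with no filter and with upper quartile scaling. It was called under 8 of 16 alternatives, over which the log2 fold change stayed between 0.92 and 1.29 while the adjusted p ranged from 0.00268 to 1.

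In Cxcr4CreER mice B2m read 88537, 54300 and 111816 in control microglia and 175273, 134334 and 142893 in control monocytes. KO microglia had 71085, 125687 and 89063, and KO monocytes 174028, 138931 and 165552. Monocytes were again above microglia without overlap in both genotypes. The differences missed the threshold, at a log2 fold change of 0.88 (SE 0.26, adjusted p 0.0675) in control and 0.78 (SE 0.26, adjusted p 0.105) in KO mice. Of the 13 alternatives, 1 called B2m in control mice and 0 in KO mice.

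H2-D1, a classical heavy chain that presents peptides to CD8 T cells, read 328, 507, 649 and 179 in reporter microglia and 865, 827, 2029 and 1217 in reporter monocytes. The groups did not overlap, and the log2 fold change of 1.62 (SE 0.57) did not pass the test (adjusted p 0.281). In the 5 libraries with many detected genes it did, at 1.22 (SE 0.26, limma adjusted p 0.00730), where 15.5% of genes were called. In control mice H2-D1 read 12434, 12427 and 9553 in microglia and 38126, 15102 and 29758 in monocytes, so that monocytes 2 lay close to the highest microglia library and the other 2 far above. The means rose from 11471 ± 1661 to 27662 ± 11654 (n = 3 each), with a fitted fold of 2.26, a log2 fold change of 1.18 (SE 0.31, adjusted p 0.0462). This call held in 3 of 13 alternatives, with adjusted p from 0.00454 to 0.202; leaving out any 1 library except monocytes 2 ended it (adjusted p 0.0857 to 0.150), as did the animal as a random block (adjusted p 0.0584). Without monocytes 2 the fold change was 1.56. KO microglia had 12934, 18903 and 13181 and KO monocytes 37535, 23871 and 31404, again without overlap (log2 1.04, SE 0.31, adjusted p 0.0751; called under 1 of 13 alternatives, DESeq2, at 0.0287).

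H2-K1, the other classical heavy chain measured, read 486, 663, 638 and 876 in reporter microglia and 764, 1388, 1212 and 972 in reporter monocytes. The groups overlapped, because microglia 4 exceeded monocytes 1 (log2 0.70, SE 0.48, adjusted p 0.949). In control mice it read 13995, 14063 and 6977 in microglia and 20942, 10018 and 18169 in monocytes, and the groups overlapped through monocytes 2 (log2 0.49, SE 0.34, adjusted p 0.477). KO microglia had 11487, 16030 and 14243 and KO monocytes 27771, 16526 and 22561, without overlap but with only a small gap between microglia 2 and monocytes 2 (log2 0.66, SE 0.34, adjusted p 0.320). H2-K1 was called under 0 of the 16 alternatives in reporter mice and 0 of 13 in each of the 2 other comparisons.

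The heavy chain values rest partly on reads that other genes could claim. Of the distinct 31-base stretches in H2-D1 transcripts of the GENCODE vM21 annotation, 27.6% also occur in another gene, 13.6% in H2-K1; of those in H2-K1, 20.3% do, 14.3% in H2-D1. Of all those in H2-T23, 48.4% also occur in another gene, 25.5% in H2-T-ps and 11.6% in H2-Q1. The share was 4.62% for H2-M3. B2m and Nlrc5 shared none, Tap1 1.48%, Tap2 1.44% and Tapbp 5.54%. For the Cxcr4CreER libraries kallisto is named as the counting tool, and for the reporter libraries no aligner is named. How such reads were divided was not examined here, and heavy chain values are therefore less certain than those of B2m and Nlrc5.

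H2-T23 encodes Qa-1, a nonclassical heavy chain that presents leader peptides of other class I molecules to natural killer receptors. In reporter mice it read 59.4, 56.4, 62.4 and 0 in microglia and 57.6, 61.6, 0 and 50.9 in monocytes, so that both populations lay near the same level apart from the 2 libraries at 0, each of which detected few genes. By counting error alone, those zeros allow up to 4.45 normalized counts in microglia 4 and 3.97 in monocytes 3, from a floor of 3 reads. The few detected genes of these libraries are not covered by that floor. In control mice monocytes read 10959, 7575 and 10837 and microglia 5719, 6806 and 6196, without overlap (log2 0.63, SE 0.27, adjusted p 0.215). In KO mice monocytes read 12138, 8803 and 7168 and microglia 4358, 7263 and 5507, and the lowest monocyte library fell just below the highest microglia library (log2 0.71, SE 0.27, adjusted p 0.155).

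H2-M3, a nonclassical heavy chain that binds formylated peptides, was the least regular heavy chain. In reporter mice it read 28.4, 25.4, 0 and 0 in microglia and 17.5, 23.8, 0 and 31.5 in monocytes, with the 3 zeros in the libraries with few detected genes. In control monocytes it read 1070, 30.7 and 1886, the second of these from 14 reads, and in control microglia 285, 1717 and 1562. The log2 fold change of -1.19 (SE 1.23, adjusted p 0.651) turned to 0.63 without control monocytes 2. KO libraries were closer together, at 1569, 1000 and 1373 in microglia and 1305, 1105 and 1872 in monocytes (log2 0.11, SE 1.23, adjusted p 0.981).

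**Figure D2:**
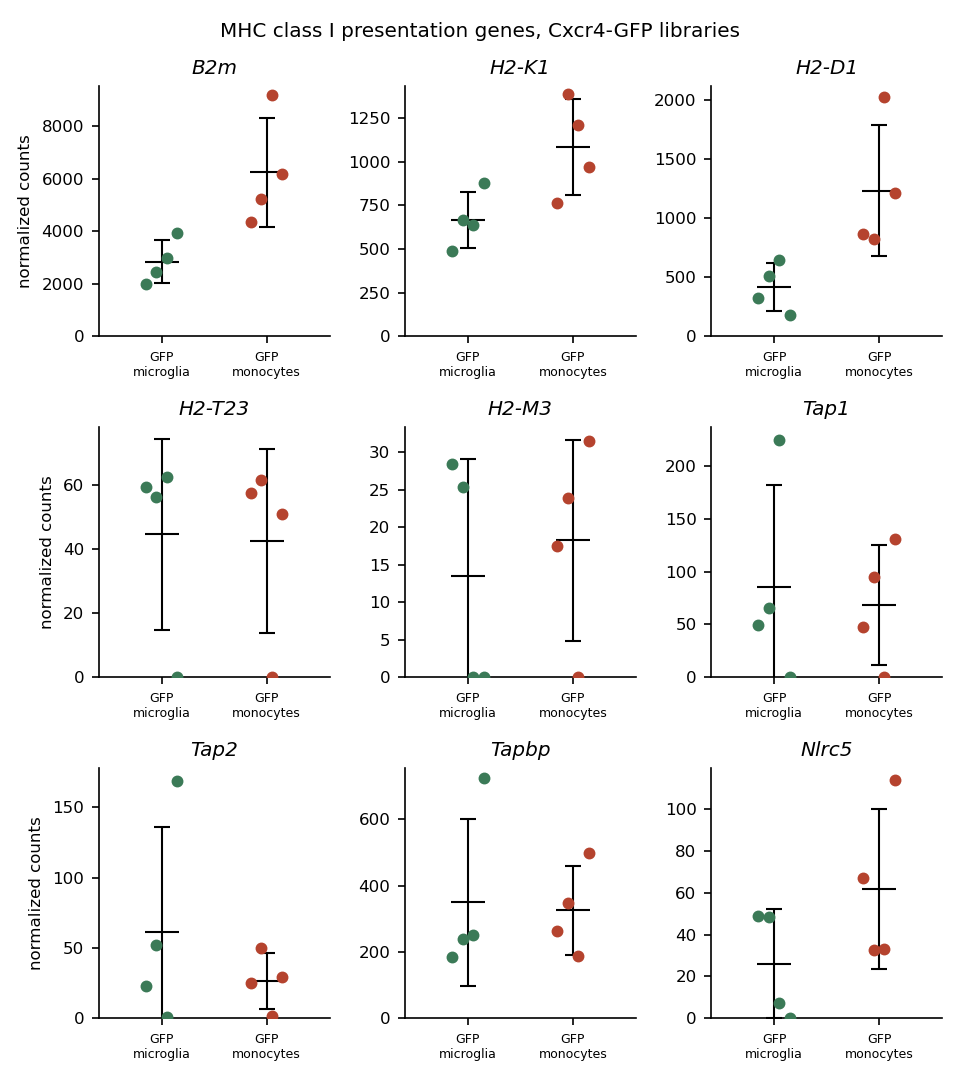
Normalized counts (y axis, linear) of the 9 members in the 4 microglia (green) and 4 monocyte (red) libraries of Cxcr4-GFP mice, 1 panel per gene; points are libraries, long ticks are means and bars are 1 SD, whose lower arms are cut at 0. The monocyte points lie wholly above the microglia points for B2m and H2-D1.

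Tap1 and Tap2, the subunits of the peptide transporter, showed no difference between the populations that passed the test in any of the 3 comparisons. Tap1 read 958, 730 and 1052 in control microglia and 638, 944 and 1194 in control monocytes, with full overlap (log2 -0.01, SE 0.50, interval -1.11 to 1.08, adjusted p 0.997). In KO mice it read 614, 404 and 897 in microglia and 1610, 573 and 626 in monocytes, where monocytes 1 alone was high (log2 0.46, SE 0.50, adjusted p 0.693). In reporter mice Tap1 read 49.1, 65.8, 225 and 0 in microglia and 47.6, 94.5, 0 and 131 in monocytes, and the libraries with few detected genes held the highest microglia value and both zeros (log2 -0.08, SE 2.04, adjusted p 0.999).

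Tap2 was measured from few reads in several libraries. Control microglia had 392, 315 and 91.4 and control monocytes 405, 331 and 94.6 (log2 0.06, SE 0.97, interval -2.06 to 2.18, adjusted p 0.987). The low value in each of these groups came from the same animal, number 3. KO microglia read 207, 202 and 641 and KO monocytes 123, 35.3 and 307, overlapping (log2 -1.43, SE 0.97, adjusted p 0.479). In reporter mice Tap2 read 23.2, 52.1, 1.25 and 169 in microglia and 25.1, 50.3, 1.32 and 29.1 in monocytes, where 1.25 and 1.32 stand for 1 read each (log2 -0.60, SE 1.98, adjusted p 0.999). In control mice the intervals include log2 fold changes of over 1 either way for Tap1 and over 2 either way for Tap2, so neither gene can be called equal between the populations.

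Tapbp, the gene of tapasin, read 2918, 3348 and 4000 in control microglia and 9582, 4801 and 8400 in control monocytes. KO microglia read 2914, 2817 and 3396 and KO monocytes 8902, 4349 and 6876. Monocytes were above microglia without overlap in both genotypes, and replicate 2 was the lowest monocyte library each time. The log2 fold changes of 1.10 (SE 0.33, adjusted p 0.0705) and 1.08 (SE 0.33, adjusted p 0.0735) missed the threshold. In each genotype 2 of 13 alternatives called Tapbp: DESeq2 (adjusted p 0.00930 in control and 0.0101 in KO mice) and the fit without monocytes 2 of that genotype (0.0261 and 0.0377). In reporter mice Tapbp read 183, 239, 251 and 723 in microglia and 263, 349, 189 and 499 in monocytes, with overlap (log2 0.03, SE 0.77, adjusted p 0.999). In the 5 libraries with many detected genes its fold change there was 0.77 (SE 0.29, adjusted p 0.105).

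Nlrc5, the transactivator, differed most regularly in Cxcr4CreER mice. Control microglia read 2016, 1366 and 1908 and control monocytes 5793, 6305 and 5207, so that the lowest monocyte library was far above the highest microglia library. The means rose from 1763 ± 349 to 5768 ± 549 (n = 3 each), with a fitted fold of 3.31, a log2 fold change of 1.73 (SE 0.33, adjusted p 0.00848). It was called under 13 of 13 alternatives, with log2 fold changes from 1.45 to 1.83 and adjusted p from 1.33e-05 to 0.0343.

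KO microglia read 1162, 2284 and 1724 for Nlrc5 and KO monocytes 5860, 3470 and 3401, where monocytes 1 was high and the other 2 lay between it and the microglia. The means rose from 1723 ± 561 to 4244 ± 1400, with a fitted fold of 2.47 (n = 3 each; log2 1.31, SE 0.33, adjusted p 0.0345), and it was called under 6 of 13 alternatives. It was lost with total read scaling (0.0616) or upper quartile scaling (0.0531), and on leaving out any 1 library except microglia 2, at adjusted p from 0.0556 to 0.136. In reporter mice Nlrc5 read 49.1, 48.2, 7.49 and 0 in microglia and 67.0, 32.8, 33.0 and 114 in monocytes. The 2 low microglia values came from libraries with few detected genes, and the fold change fell from 2.19 (SE 1.88, adjusted p 0.999) to 0.37 (SE 0.51, adjusted p 0.691) in the 5 libraries with many detected genes.

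**Figure D3:**
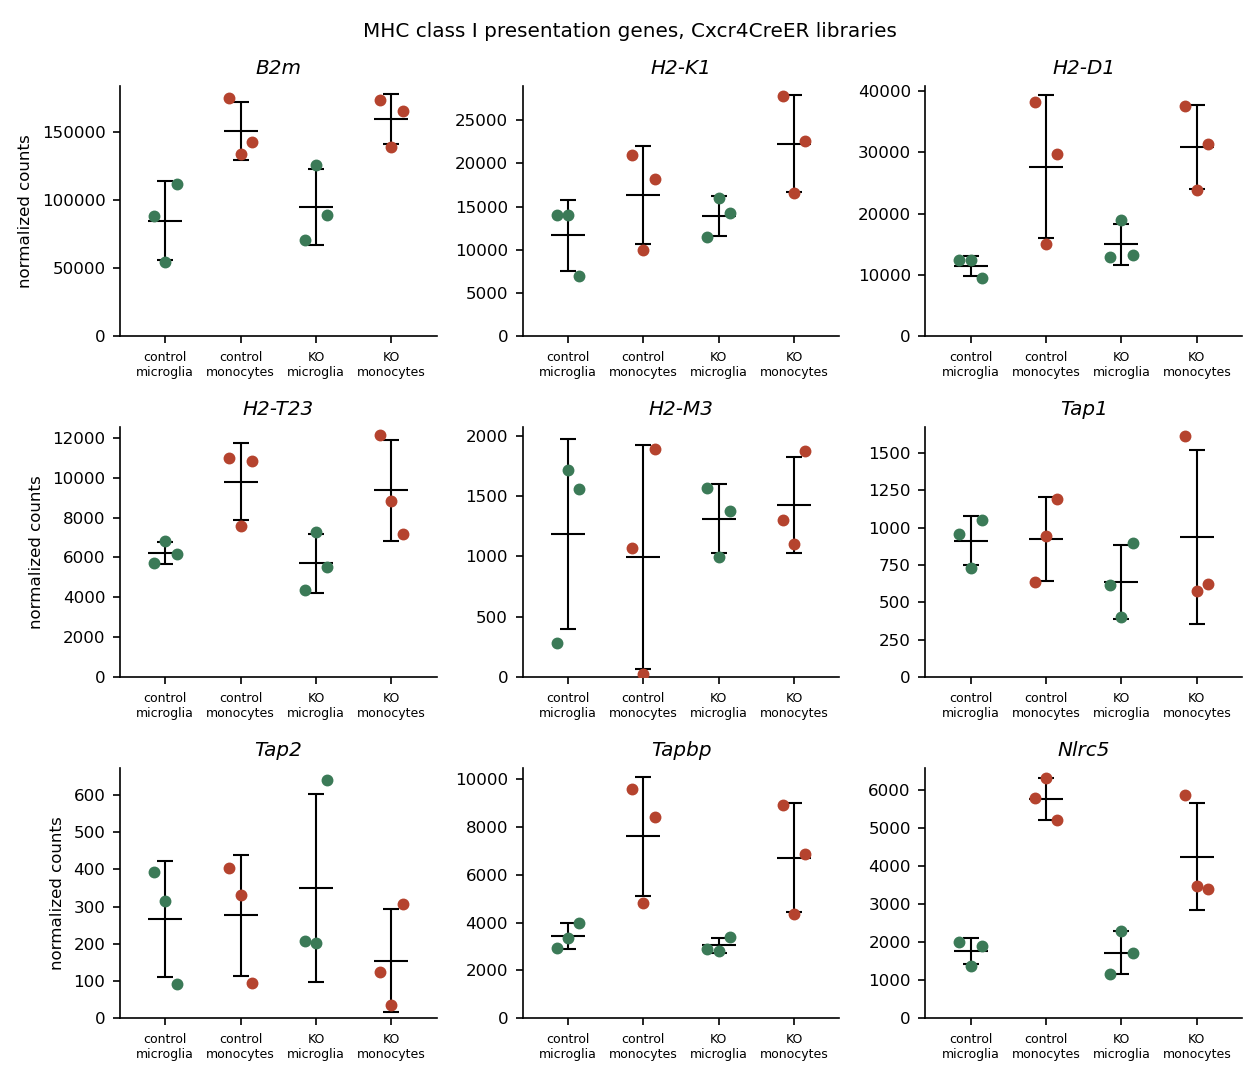
Normalized counts (y axis, linear) of the 9 members in the 12 Cxcr4CreER libraries, 3 per group, with microglia in green and monocytes in red; points are libraries, long ticks are means and bars are 1 SD. Nlrc5, H2-D1, B2m and Tapbp sit higher in monocytes than in microglia of the same genotype, while Tap1, Tap2 and H2-M3 overlap.

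Where a single animal or pool gave both populations, the 2 libraries can be set side by side, in 4 reporter pairs, 2 control pairs and 2 KO pairs. B2m was higher in the monocytes of all 8 pairs, by 0.65 to 1.61 on the log2 scale in reporter mice, 0.35 to 0.99 in control mice and 0.47 to 0.89 in KO mice. H2-K1 and H2-D1 were also higher in the monocytes of all 8 pairs, H2-K1 by 0.15 to 1.38 and H2-D1 by 0.70 to 2.76. Tapbp, H2-T23 and H2-M3 were higher in monocytes in all 4 Cxcr4CreER pairs, and in 2, 2 and 1 of the 4 reporter pairs. H2-M3 was at 0 in both libraries of reporter pair 3.

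Nlrc5 was higher in monocytes in 3 of 4 reporter pairs and in all 4 Cxcr4CreER pairs, by 1.45 and 1.52 in the control pairs and 0.98 and 1.36 in the KO pairs. The pair that went the other way was the pool of 5 mice, with 48.2 in microglia and 32.8 in monocytes. Tap1 was higher in monocytes in 2 of 4 reporter pairs, 1 of 2 control pairs and 1 of 2 KO pairs. Tap2 differed by less than 0.06 in both control pairs and was lower in monocytes in both KO pairs, by 0.71 and 1.06. No test was run over these few pairs, and the share of all tested genes with the same direction in every pair was not computed.

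**Figure D4:**
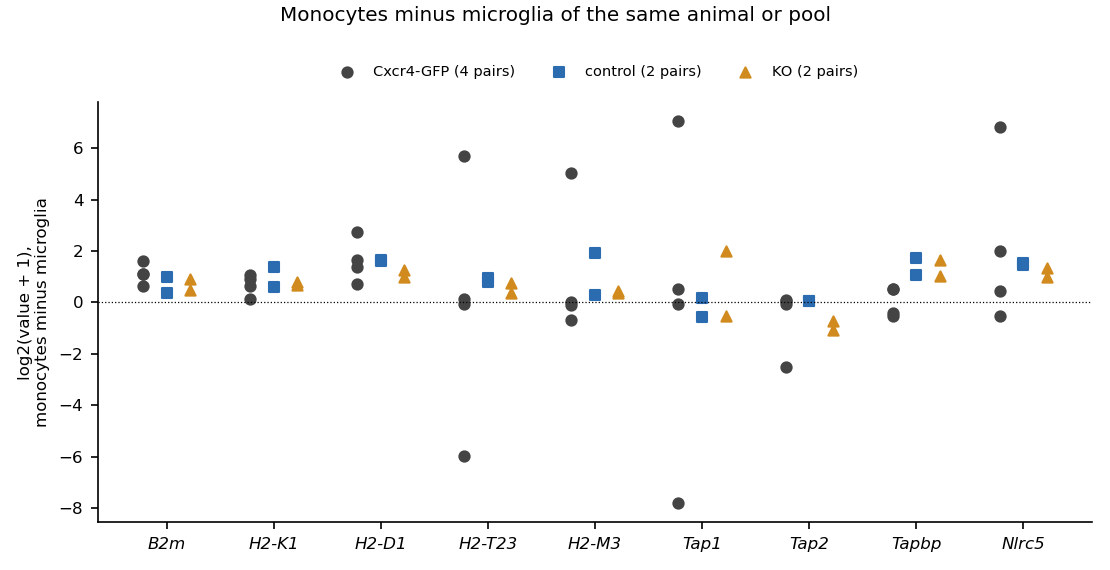
Difference in log2(value + 1) between monocytes and microglia of the same animal or pool (y axis) for the 9 members, with 4 reporter pairs as grey circles, 2 control pairs as blue squares and 2 KO pairs as orange triangles. B2m, H2-K1 and H2-D1 lie above the dotted line at 0 in every pair, and the widest reporter differences, such as -7.82 and 7.04 for Tap1, come from libraries where the gene had 0 reads.

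The second question was whether these genes differed between KO and control mice within a population; the comparisons use the same 12 libraries as those between populations. No member was called in KO against control monocytes, where limma called 5 genes (0.0402%), or in KO against control microglia, where it called 4 (0.0322%). No member had an unadjusted p under 0.05 in either comparison, against 6.08% and 3.53% of all genes, and edgeR and DESeq2 each called 0 members. The median log2 fold change of the members was -0.08 in monocytes and 0.19 in microglia, beside 0.05 and 0.05 over all genes. KO and control monocytes overlapped for all 9 members (8.82% of all genes did not overlap). In microglia they overlapped for 8 of 9, H2-D1 being the exception (9.46% of all genes).

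B2m was 159504 ± 18314 in KO and 150834 ± 21594 in control monocytes (n = 3 each), with a log2 fold change of 0.08 and a 95% interval of -0.48 to 0.65. H2-T23 had -0.08 (-0.66 to 0.51). H2-D1 had 0.24 (-0.45 to 0.93) and H2-K1 0.48 (-0.26 to 1.22). For Nlrc5 the difference was -0.49 (SE 0.33, interval -1.21 to 0.23, adjusted p 0.879), since 2 of the 3 KO monocyte libraries were below all 3 control libraries and 1 was not. Tapbp had -0.18 (-0.89 to 0.53) and Tap1 -0.10 (-1.20 to 0.99). The interval of H2-M3, 1.80 (-0.89 to 4.49), was set by control monocytes 2, without which its fold change was -0.03. Tap2 had -1.07 (-3.19 to 1.05).

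In microglia, H2-D1 read 12934 to 18903 in KO against 9553 to 12434 in control mice, and the difference of 0.38 (SE 0.31, interval -0.31 to 1.06) did not pass the test. The other members had fold changes from -0.57 for Tap1 to 0.50 for H2-M3, and that of Nlrc5 was -0.07 (-0.79 to 0.65). Cxcr4 was at 0 in 2 of 3 microglia libraries of each genotype, which were sorted as TdT-negative. Its bearing on the KO comparison of microglia was not tested.

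The term for genotype by population tested whether the KO difference of monocytes departed from that of microglia, and shares its libraries with the comparisons above. Limma called 0 of 9 members and 0 of 12432 genes (0%), edgeR 0 genes and DESeq2 276, of which 0 were members; no member had an unadjusted p under 0.05 (4.75% of all genes). For Nlrc5 the term was -0.42 (SE 0.47, interval -1.44 to 0.60), for B2m -0.11 (-0.90 to 0.69) and for H2-D1 -0.14 (-1.11 to 0.84). The fold changes of Nlrc5 in control and KO mice, 1.73 and 1.31, were therefore not shown to differ.

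**Figure D5:**
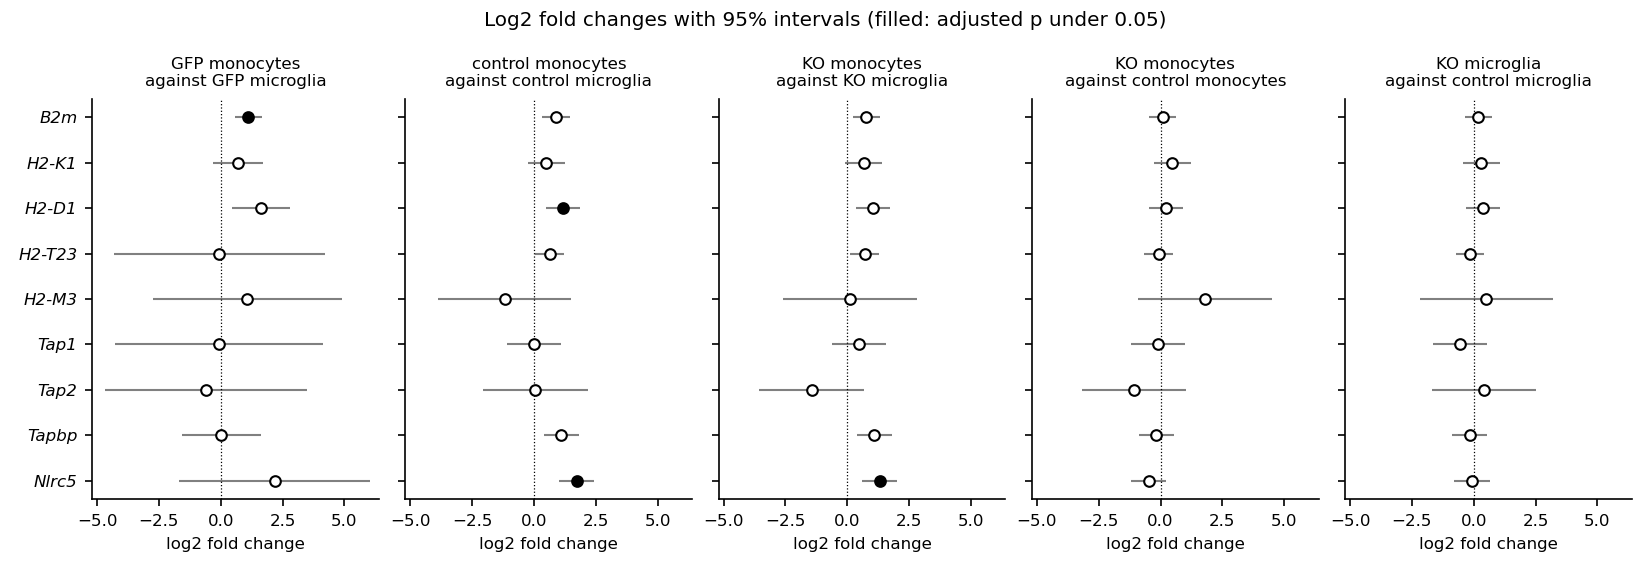
Log2 fold changes (x axis) of the 9 members with 95% intervals in 5 comparisons, 1 panel each; filled points have an adjusted p under 0.05. Filled points are B2m in reporter mice, H2-D1 and Nlrc5 in control mice and Nlrc5 in KO mice, and the 2 panels of KO against control hold none.

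Taking the 4 Cxcr4CreER groups in order of mean level, B2m ran from control microglia (84885) through KO microglia (95278) and control monocytes (150834) to KO monocytes (159504), and H2-D1 and H2-K1 kept the same order. Neighbours of 1 population differed by less than their SD for B2m. Nlrc5 ran from KO microglia (1723) and control microglia (1763), which did not differ beyond their spread, through KO monocytes (4244) to control monocytes (5768). H2-T23 and Tapbp followed the order of Nlrc5, with KO monocytes at 9370 and 6709 and control monocytes at 9790 and 7594. For Tap2 and H2-M3 every pair of neighbours in the order of means differed by less than the SD of both groups. For Tap1 that held for control microglia (913), control monocytes (925) and KO monocytes (936), with KO microglia (638) lowest.

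The wider pathway was read from 5 lists. Of 10 genes of peptide supply and loading (immunoproteasome subunits, the proteasome activator PA28, the trimming peptidase Erap1 and chaperones), 0 of 9 tested were called in reporter mice, 0 rose and 1 fell of 10 in control mice, and 1 rose of 10 in KO mice. A count of 1 in 10 is near the 6.52% and 6.83% of all tested genes called in control and KO mice. The gene that fell was Erap1, which trims peptides in the endoplasmic reticulum, at 149 ± 37.1 in control monocytes against 815 ± 216 in control microglia (log2 -2.43, SE 0.54, adjusted p 0.0187). Leaving out control microglia 1, microglia 2 or monocytes 1 ended that call (adjusted p 0.0525 to 0.0694). In KO mice it was not called, and its term for genotype by population was 2.17 (SE 0.76, adjusted p 0.945). The gene that rose was Psme2, a PA28 subunit, at 11968 ± 1062 in KO monocytes against 5760 ± 1976 in KO microglia (log2 1.11, SE 0.26, adjusted p 0.0253). That call was lost on leaving out any 1 library except KO microglia 3, and with total read or upper quartile scaling (adjusted p 0.0703 and 0.0696). In reporter mice the smallest p of that list belonged to Psmb10, an immunoproteasome subunit (log2 3.40, SE 1.78, limma adjusted p 0.766). Psmb10 was called in the 5 libraries with many detected genes (log2 1.68, SE 0.50, adjusted p 0.0441), where 15.5% of genes were called.

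A list of 8 genes held interferon receptors, their kinases and Socs1. Of these, Jak2, a kinase of the interferon gamma receptor, rose in both genotypes. That is 1 of 8 tested in each, beside the same 6.52% and 6.83% of all genes. Jak2 was 1660 ± 250.0 in control monocytes against 460 ± 226 in microglia (log2 1.95, SE 0.45, adjusted p 0.0225), and 1953 ± 846 against 573 ± 63.5 in KO mice (log2 1.68, SE 0.45, adjusted p 0.0441). With the animal as a random block the KO call was lost (adjusted p 0.0517). In reporter mice Jak2 was 237 ± 30.9 against 74.7 ± 49.5 (limma adjusted p 0.745). The fold change of the 5 libraries with many detected genes was called (log2 1.21, adjusted p 0.0124), as were 15.5% of genes there. Leaving out 1 library at a time ended the control call of Jak2 for every library except microglia 3 and monocytes 2, and the KO call for every library except monocytes 3 (adjusted p up to 0.0747 and 0.163).

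The 17 regulators of class I genes hold the RFX, CREB and NF-Y subunits of the SXY complex with STAT, IRF and NF-kappaB factors, and Ciita. They gave 0 calls in each of the 6 comparisons, with 16 of them tested in reporter mice. Of all tested genes, 0.908% were called in reporter, 6.52% in control and 6.83% in KO mice. For KO against control the share was 0.0402% in monocytes and 0.0322% in microglia, and for genotype by population it was 0%. A count of 0 on lists this short is near these shares. Irf1, an interferon-induced activator of Nlrc5 and class I genes, was 1899 ± 747 in control monocytes and 1178 ± 332 in microglia (log2 0.65, SE 0.38, adjusted p 0.381), and 0.64 in KO mice (adjusted p 0.407). The smallest p of that list belonged to Irf8 in control mice (limma log2 -3.73, SE 1.45, adjusted p 0.176), at 6.58 to 1496 in monocytes and 2639 to 3116 in microglia. In KO mice it belonged to Rfx5 (limma log2 -4.25, SE 2.32, adjusted p 0.354), at 0 to 160 in monocytes and 10.3 to 339 in microglia. Fold changes were above 0 for 9 of 17 regulators in control and 10 of 17 in KO mice, beside 43.4% and 43.1% of all genes. Among 11 tested of 17 other class I heavy chains in the Cxcr4CreER table, 0 were called, with medians of 0.41 in control and 0.32 in KO mice. H2-Q7 was 2324 ± 442 in control monocytes and 1426 ± 441 in microglia (limma adjusted p 0.414). H2-Q6 went the other way, at 1053 ± 230 in control monocytes and 1840 ± 773 in microglia (limma adjusted p 0.598). H2-T24 was 2971 ± 397 in KO monocytes and 1281 ± 209 in KO microglia (limma adjusted p 0.139). In control mice H2-T24 was 2389 ± 1032 in monocytes and 2450 ± 1038 in microglia. Fold changes were above 0 for 7 of the 11 tested in each genotype, beside 43.4% and 43.1% of all genes. The 5 class I-like genes (Mr1, Cd1d1, Fcgrt, Hfe and Procr) also gave 0 calls. In KO against control samples 0 genes of the 5 lists were called in either population; the smallest p in monocytes was that of Erap1 (log2 1.88, SE 0.54, adjusted p 0.488).

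The members did not vary as a single block across libraries. Over the 12 Cxcr4CreER libraries, which share 2 populations and so tend to correlate for any gene that differs between them, the 36 pairs of members had a median Pearson r of 0.32 on the log2 scale (-0.36 to 0.88). H2-K1 with H2-D1 had 0.88, B2m with Nlrc5 0.87, H2-T23 with Nlrc5 0.86 and H2-D1 with Tapbp 0.85. Tap1 with Tap2 had -0.08. Over the 8 reporter libraries the median was 0.04 (-0.63 to 0.97), and the highest value, for H2-T23 with Tap1, rests on 2 libraries in which both genes had 0 reads.

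By the median of their correlations with the 9 members, the genes most alike were Txn1 (0.87), Slfn5 (0.86), Ifi213 (0.86), Selenow (0.85) and Gpr141 (0.85) in the Cxcr4CreER table, over 12 libraries. Each was higher in monocytes: Slfn5, for example, was 8227 ± 2654 in control monocytes and 2765 ± 496 in control microglia. In the reporter table they were Cd68 (0.64), Eef2, Cd300a, Ptprc and Helz2 (0.62), over 8 libraries. These include the 3 libraries with few detected genes, whose part in the correlations was not tested.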

How the data were processed

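The deposited values are gene counts that the authors divided by size factors, a normalized signal per gene; DESeq2 and, for the Cxcr4CreER libraries, bcl2fastq 2.20 and kallisto, for the reporter libraries CASAVA 1.82, are named per the labels and the submitters' processing notes. The sources used here name no genome build, annotation or reporter aligner. Each value was a whole multiple of the library's value of 1 read (tolerance 0.01 reads, 100% of values), so reads were recovered for depth, floors and count tests; 1 read was worth 0.104 to 2.58 in reporter and 0.375 to 2.19 in Cxcr4CreER libraries. In the Cxcr4CreER libraries these whole numbers are counts given by kallisto, and they are called reads here. The table of the Cxcr4CreER mice held 24 gene names turned into dates. Ribosomal Rn45s took 22.1 to 48.3% of reporter reads.

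Genes with at least 10 normalized counts in at least 4 reporter or 3 Cxcr4CreER libraries were tested (7706 and 12432 genes) on log2(value + 1) with limma 3.58.1 in R 4.3.3, trend on, with Benjamini-Hochberg adjustment over all of them and a threshold of 0.05. Both genotypes shared 1 fit. Alternatives were a pseudocount of 10, no filter, total read and upper quartile scaling, edgeR 4.0.16 and DESeq2 1.42.0 on recovered reads, a replicate block, each library left out in turn, and 5 reporter libraries. Labels tie libraries to animals or pools: within reporter pairs, deviations from group means correlated at 0.238, 0.198, 0.127 and -0.113, and within Cxcr4CreER pairs at -0.0555 to 0.00955. Replicates are animals or pools, and p-values measure their spread. Floors of 3 reads cover counting error only. Simulated counts had 1 preset level of spread for all genes of a table. They copied neither the pairing nor the reporter libraries with few detected genes. On them limma called 0, 4.84 and 55.1% of 69, 62 and 69 genes with log2 changes of 1, 2 and 4 in the reporter comparison (7706 genes in all). In the control comparison (12432 genes in all) it called 1.49, 24.6 and 97.1% of 67, 65 and 68 such genes. These shares need not hold for the measured libraries.

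Members, gene lists, motifs and tests were chosen with earlier results of these data known. Named genes were the 9 members, Cxcr4, called genes of the pathway lists and otherwise the genes of smallest p in a list, and the 5 genes most alike in each table.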

Additional observations from a re-analysis of the deposited data

Results flagged for a closer look

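Of 18 groups of 4 reporter libraries tested for a library far from the others (9 genes in 2 populations), 2 had one, by a gap to the nearest library over the whole range above 0.829; chance gives about 1 in 20 groups. H2-T23 was 0 in reporter microglia 4, against 56.4 to 62.4 in the other 3 microglia libraries. Tapbp was 723 in reporter microglia 4, against 183 to 251 in the other 3. Both values come from the library with 3489 detected genes. Groups of 3 libraries were not tested in this way.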

How the results depend on the processing

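In reporter mice 1 member was called, and 0 with a pseudocount of 10, no filter, upper quartile scaling, edgeR or DESeq2, 2 in 5 libraries and 0 to 1 without 1 library. In control mice 2 were called, 1 with no filter, total read scaling, upper quartile scaling, edgeR or the replicate block, 3 with DESeq2 and 1 to 3 without 1 library. In KO mice 1 was called, 0 with total read or upper quartile scaling, 3 with DESeq2 and 0 to 1 without 1 library. Of all genes, 70 were called in reporter mice, 198 with a pseudocount of 10, 38 with no filter, 122 with total read scaling, 13 with upper quartile scaling, 187 with DESeq2, 1198 in 5 libraries and 33 to 129 without 1 library. Control mice had 810, against 478 with edgeR and 1614 with DESeq2; KO mice had 849, against 522 with edgeR, 1570 with DESeq2 and 482 to 622 without 1 library. KO against control gave 5 in monocytes (0 edgeR, 339 DESeq2, 2 to 30 without 1 library) and 4 in microglia (0 edgeR, 109 DESeq2, 0 to 8), and the interaction 0 (276 DESeq2, 0 to 1).

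Higher and lower calls in reporter mice were 32 and 38, and 70 and 52 with total read scaling, 11 and 2 with upper quartile scaling and 113 and 74 with DESeq2. In control mice 430 and 380 became 328 and 460 with upper quartile scaling; in KO mice 479 and 370 became 369 and 459 with total read scaling and 352 and 170 with edgeR. The replicate block, from the labels' animals and pools, gave 60, 740 and 796 genes in reporter, control and KO mice; among the members it ended the control call of H2-D1 (adjusted p 0.0584), and among the list genes the KO call of Jak2 (0.0517), and changed no other call of a gene named.

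Log2 fold changes that turned sign were all uncalled. In reporter mice H2-T23 became 0.068 with total read and 0.0021 with upper quartile scaling, Tap1 0.043 with total read scaling, and Tapbp -0.17 with edgeR and -0.10 with DESeq2; the 5 libraries gave H2-M3 -0.18, Tap1 0.55, Mr1 -0.49 and Irf1 -0.14. In control mice Tap1 became 0.016 with DESeq2, and Tap2 -0.12 with total read and -0.22 with upper quartile scaling; in KO mice H2-M3 became -0.14 and -0.071 with these scalings. KO against control monocytes had H2-T23 at 0.026 with upper quartile scaling and Tap1 at 0.068 with edgeR and 0.016 with DESeq2, and microglia had Nlrc5 at 0.0012 with total read scaling. In the interaction Tapbp became 0.083 with upper quartile scaling and 0.041 with edgeR, and Hfe -0.015 with edgeR and -0.048 with DESeq2.

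Without 1 library, reporter values ranged from -1.53 to 1.41 for H2-T23, -1.70 to 1.53 for Tap1, -1.79 to 0.37 for Tap2, -0.21 to 0.45 for Tapbp, -3.12 to 0.10 for Pdia3 and -0.40 to 1.52 for Hfe. Control values ranged from -2.31 to 0.63 for H2-M3, -0.22 to 0.23 for Tap1 and -0.59 to 0.70 for Tap2, and KO values from -0.10 to 0.28 for H2-M3 and -0.016 to 0.74 for Tap1. In KO against control monocytes the ranges were -0.15 to 0.52 for H2-D1, -0.28 to 0.10 for H2-T23, -0.029 to 2.92 for H2-M3, -0.58 to 0.16 for Tap1, -0.48 to 0.10 for Tapbp, -0.30 to 3.53 for Hfe and -0.12 to 3.69 for Irf8. In microglia they were -0.10 to 0.42 for B2m, -0.025 to 0.48 for H2-K1, -0.35 to 0.023 for H2-T23, -0.34 to 0.95 for H2-M3, -0.23 to 0.81 for Tap2 and -0.30 to 0.19 for Nlrc5. In the interaction they were -0.33 to 0.19 for B2m, -0.15 to 0.51 for H2-K1, -0.52 to 0.15 for H2-D1, -0.13 to 0.27 for H2-T23, -0.53 to 2.42 for H2-M3, -0.0050 to 0.75 for Tap1, -0.32 to 0.27 for Tapbp, -0.77 to 3.05 for Hfe and -0.063 to 0.50 for Ifngr1. The cause of these changes was not tested. Where a reporter library had 0 reads of a member, the floor of 3 reads was worth 3.75 to 4.45 normalized counts. That floor covers counting error only, and single reads fall under it, as for Tap2 at 1.25 in microglia 3 and 1.32 in monocytes 3.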
